A study of Mus musculus with 2 samples.

Results

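Transcripts of the interleukin-1 (IL-1) family and of genes that regulate it were followed in single cells of CT26 tumors. The set held 10 genes, chosen by symbol: the ligands *Il1a*, *Il1b*, *Il36g*, *Il18* and *Il33*, the antagonist *Il1rn*, the receptor genes *Il1r2*, *Il1rap* and *Il1rl1*, and the binding protein gene *Il18bp*. They are 10 of 33696 genes listed in the deposited matrices, and each of the 10 symbols was found once. The tumors came from CT26, a line of mouse colon carcinoma cells, implanted in young adult male BALB/c mice. UT mice received no treatment, and BUP mice received BUP-Gel, a hydrogel that releases the local anesthetic bupivacaine at the tumor. Cells of 3 tumors per group were pooled, sorted into live CD45+ and CD45- cells, mixed again with an excess of CD45+ cells and run as 1 library per group. The labels and the methods give different mixing ratios, so shares of cell types are not read as tumor composition. The mice of a group cannot be separated within its library, so no test between UT and BUP was possible.

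IL-1 family cytokines signal through paired receptors that recruit MyD88 and turn on NF-kB, a transcription factor that drives inflammatory genes. IL-1 alpha and IL-1 beta act on the IL-1 receptor with the shared accessory chain encoded by *Il1rap*, while the receptor antagonist (*Il1rn*) and the decoy receptor (*Il1r2*) hold that signal back. IL-1 beta and IL-18 are made as precursors that inflammasomes and caspase-1 cleave, so transcript levels do not give the amount of active cytokine. IL-18 is held by IL-18 binding protein, an interferon-inducible gene product, and IL-33 acts through ST2, the product of *Il1rl1*. In tumors, IL-1 beta is known as a product of macrophages, monocytes and neutrophils.

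All 10 members matched the GENCODE annotation of GRCm39 by gene ID. *Il1a* (chromosome 2, 129140291 to 129152098, reverse strand) and *Il1b* (129206490 to 129213059, reverse strand) lie 54.4 kb apart. *Il36g* (24072000 to 24083585, forward strand) and *Il1rn* (24226865 to 24241506, forward strand) lie on the same chromosome, 143 kb apart. *Il1r2* (40113239 to 40164391) and *Il1rl1* (40468730 to 40504575) are on the forward strand of chromosome 1, with 304 kb between them. *Il1rap* is on chromosome 16 (26400350 to 26548880, forward strand), *Il18* on chromosome 9 (50466081 to 50493633, forward strand), *Il18bp* on chromosome 7 (101638490 to 101668206, reverse strand) and *Il33* on chromosome 19 (29902483 to 29938933, forward strand). Antisense genes cover all of *Il1b*: Gm14023, with 1128 UMIs (unique molecular identifiers, 1 per captured molecule) in all barcodes, and Il1bos, with 543. *Numa1*, with 12580 UMIs, overlaps *Il18bp* on the opposite strand. Whether the counting used strand is not given in the sources used here, so reads of such pairs cannot be told apart with certainty. Gene counts also merge isoforms, such as soluble and membrane forms of *Il1rl1* and *Il1rap*.

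The 250 bases before the start of the canonical transcript are shown for *Il1b*, its antagonist gene *Il1rn* and *Il36g*, 3 of the members highest in neutrophil-like cells. They were read from the GENCODE starts on GRCm39 in the direction of transcription. Capitals mark matches, on either strand, to GAGGAA (the core of PU.1 sites), TGANTCA (AP-1) and TATAAA (the TATA box). The windows are chr2:129213060-129213309, reverse strand, for *Il1b*, chr2:24226615-24226864, forward strand, for *Il1rn*, and chr2:24076238-24076487, forward strand, for *Il36g*.
Il1b: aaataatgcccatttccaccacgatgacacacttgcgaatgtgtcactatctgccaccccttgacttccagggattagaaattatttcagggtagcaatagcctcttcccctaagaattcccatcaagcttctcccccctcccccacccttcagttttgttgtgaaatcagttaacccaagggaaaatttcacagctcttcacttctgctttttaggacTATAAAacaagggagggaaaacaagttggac
Il1rn: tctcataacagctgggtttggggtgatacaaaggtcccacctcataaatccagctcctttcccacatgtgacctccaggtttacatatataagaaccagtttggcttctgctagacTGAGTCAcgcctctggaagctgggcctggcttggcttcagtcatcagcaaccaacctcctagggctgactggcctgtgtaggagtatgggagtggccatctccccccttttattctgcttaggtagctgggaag
Il36g: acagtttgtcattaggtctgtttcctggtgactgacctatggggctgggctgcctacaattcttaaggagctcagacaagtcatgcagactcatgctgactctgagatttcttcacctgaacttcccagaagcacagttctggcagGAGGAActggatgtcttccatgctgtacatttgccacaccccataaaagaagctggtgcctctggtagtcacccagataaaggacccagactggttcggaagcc
The *Il1b* window held a TATA match 31 to 26 bases before the start, the *Il1rn* window an AP-1 match at 134 to 128 bases and the *Il36g* window a PU.1 core at 104 to 99 bases. No motif was common to the 3 windows. Of 21757 windows of protein-coding genes, 11.9% held TATAAA, 6.18% TGANTCA and 22.9% GAGGAA. Searches for TTGCNNAA (C/EBP, in 9.34% of all windows), the NF-kappaB consensus (7.63%) and the interferon-stimulated response element (ISRE, 3.32%) had no match in these 3 windows. The *Il18bp* window held TTGCNNAA and no ISRE match. These letters describe the windows and say nothing of binding.

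In UT there were 83228442 UMIs over 7556 barcodes, and in BUP 89918925 over 7221, of which 7163 and 6776 passed the filter as cells, with medians of 8430 and 10420 UMIs. The libraries shared 76 barcode sequences, 68 of them among cells that passed. Cells were clustered with the 10 members and the wider pathway list left out of the genes used, and clusters were named from markers. Neutrophil-like cells (620 UT and 426 BUP) expressed all 8 neutrophil markers and were the shallowest of the 6 classes compared, with medians of 1882 and 2128 UMIs. Macrophage-like cells (2758 and 1386) fell into 4 clusters with all 11 macrophage markers detected. Detection here means at least 3 UMIs summed over a cluster, which is a low bar. None of the 11 was among the 10 leading genes of a cluster led by *Cxcl3* and *Thbs1* or of an interferon-led cluster. A C1q cluster had 5 of them there, a cycling C1q cluster 3. Dendritic-like cells (143 and 154) joined a cDC1-like and a migratory cluster. T-like cells numbered 569 and 810, NK-like cells 529 and 395, and tumor-like cells 1126 and 2432. By the same bar NK-like clusters had 5 of 6 markers and tumor-like clusters 7 of 9. Y-linked transcripts were at 5.01 and 5.25 CPM (UMIs of a gene scaled to a class total of 1000000) in the tumor-like clusters and at 105 CPM or more in the clusters of immune cells of these male hosts, erythrocyte-like cells aside. Clusters with mixed markers stayed outside the classes, among them 132 UT and 120 BUP cells with neutrophil and macrophage markers and 337 and 335 cells with T cell and myeloid markers.

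*Il1b* was highest in neutrophil-like cells and lowest in tumor-like cells among the 6 classes. Intervals are exact, at 95%, and cover counting error only. In neutrophil-like cells *Il1b* was at 13157 CPM (12964.5 to 13352) in UT and 11129 (10933 to 11328) in BUP, giving a log2 ratio of BUP over UT of -0.24 (-0.27 to -0.21). Macrophage-like cells had *Il1b* at 1240.0 CPM in UT (1228 to 1252) and 1869 (1847 to 1891) in BUP, giving a log2 ratio of 0.59 (0.57 to 0.61). The neutrophil-like ratio was below 1.5-fold and the macrophage-like ratio just past it. Both classes had broad expression: at an equal depth of 1000 UMIs per cell, 95.7% of UT and 97.9% of BUP neutrophil-like cells and 46.0% and 55.2% of macrophage-like cells held an *Il1b* UMI. Dendritic-like cells had *Il1b* at 753 and 713 CPM, with a log2 ratio of -0.08 (-0.19 to 0.03), an interval that holds 0. That ratio was -0.41 without the cells of highest doublet score, -0.21 with the stricter cell filter and -0.23 among cells without an *S100a8* or *S100a9* UMI, all below 1.5-fold. Its clusters went opposite ways, with 779 and 631 CPM in cDC1-like and 698 and 921 CPM in migratory cells.

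Lymphoid and tumor-like cells carried far less *Il1b*. T-like cells had *Il1b* at 209.5 CPM in UT and 109 in BUP, giving a log2 ratio of -0.94 (-1.09 to -0.80). NK-like cells had 109 and 124 CPM, and tumor-like cells 69.4 and 43.0 CPM, with log2 ratios of 0.18 (-0.02 to 0.38) and -0.69 (-0.78 to -0.60). The share of T-like cells with an *Il1b* UMI at 1000 UMIs per cell was 6.03% in UT and 3.67% in BUP. In erythrocyte-like cells, which should lack the gene, the same shares were 15.2% (7.51 to 26.1) and 1.54% (0.0389 to 8.28), at median depths of 1018 and 1116 UMIs. The T-like, NK-like and tumor-like shares in UT lay below that erythrocyte-like share, and those of BUP were within its interval. Erythrocyte-like cells had few UMIs to lose by thinning and the other classes many, so the shares alone cannot decide what is background. By level, erythrocyte-like cells had *Il1b* at 153 CPM (22 UMIs) in UT and 34.1 CPM (5 UMIs) in BUP. T-like cells were above this in both libraries, and NK-like and tumor-like cells in BUP only. Whether *Il1b* UMIs in these classes are expression was not decided. B cell-like cells had no *Il1b* UMI in 10 UT and 16 BUP cells.

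**Figure D1:**
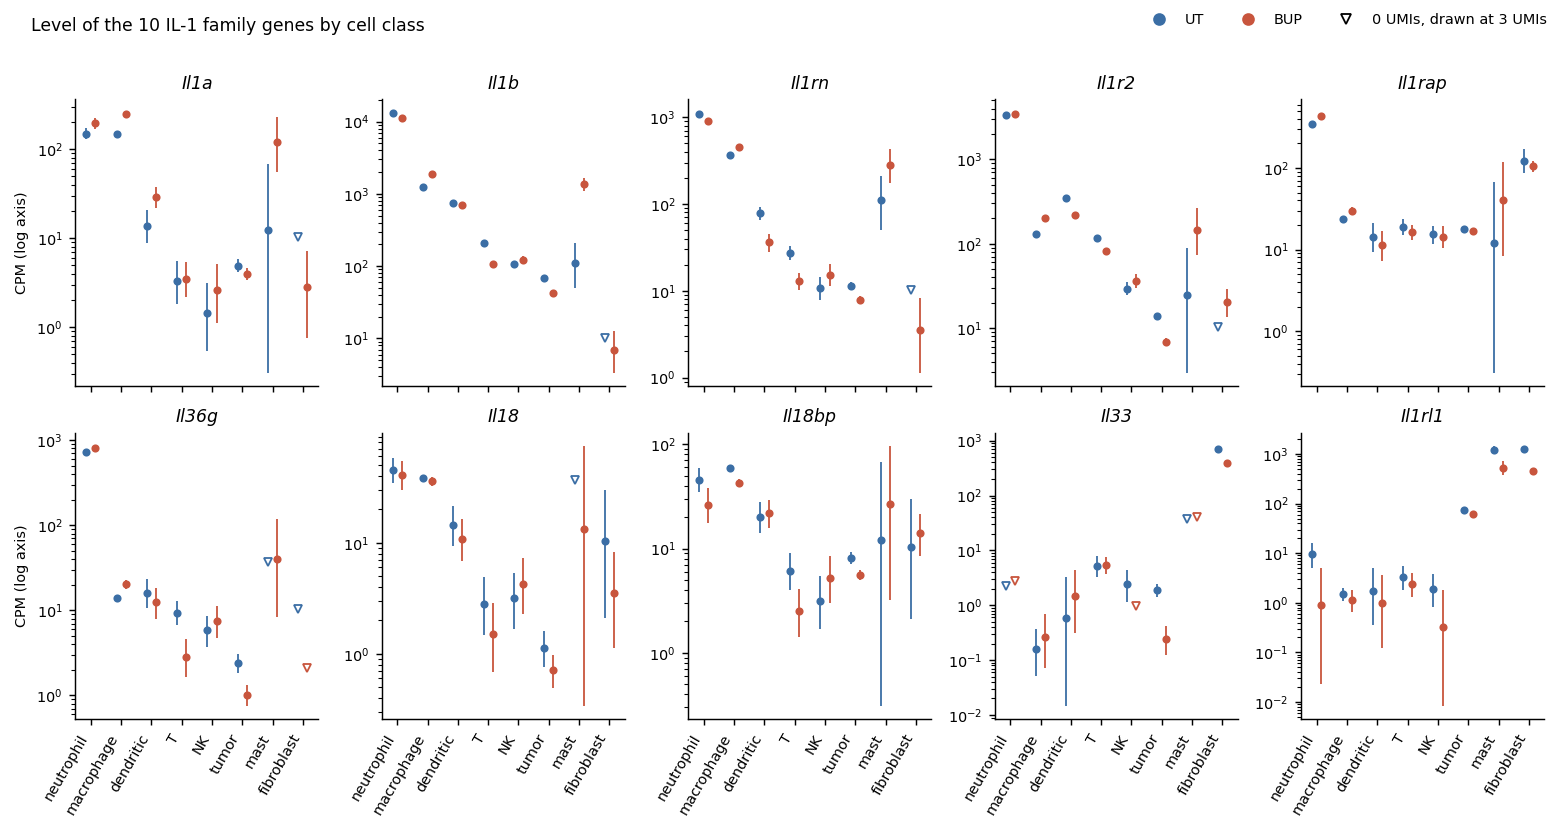
Level of each of the 10 members (CPM, log axis) in UT (blue) and BUP (red) cells of 8 classes, with exact 95% Poisson intervals and open triangles at 3 UMIs where none was counted. *Il1b*, *Il1rn*, *Il1r2*, *Il1rap* and *Il36g* were highest in neutrophil-like cells in both libraries, while *Il33* and *Il1rl1* were highest in fibroblast-like or mast-like cells.

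The higher *Il1b* of BUP macrophage-like cells was uneven over their clusters. A cluster led by *Cxcl3* and *Thbs1* had the highest *Il1b*, at 2271 CPM in UT and 2570 in BUP, giving a log2 ratio of 0.18 (0.15 to 0.21). The cluster led by complement genes (*C1qa*, *C1qb*, *C1qc*) had 718 and 1246 CPM, giving a log2 ratio of 0.79 (0.75 to 0.84). An interferon-led cluster (*Rsad2*, *Ifit2*, *Mx1*) had 1294 and 1569 CPM, and cycling C1q cells had 439 and 491 CPM, with log2 ratios of 0.28 (0.18 to 0.37) and 0.16 (0.01 to 0.31). All 4 clusters were thus higher in BUP, the C1q cluster by the widest margin. The *Cxcl3* and *Thbs1* cluster was also a larger part of the class in BUP (811 of 1386 cells) than in UT (1288 of 2758). With the clusters weighted equally in both libraries the log2 ratio of *Il1b* was 0.30, and in cells thinned to 1000 UMIs it was 0.35, both below a 1.5-fold difference.

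Neutrophil transcripts moved with this result. The summed level of the 8 neutrophil markers in macrophage-like cells was 1370 CPM for UT and 2748 in BUP, and *S100a9*, a calprotectin gene abundant in neutrophils, was at 637 and 1445 CPM. In the C1q cluster *S100a9* was at 902 and 2734 CPM. Among macrophage-like cells without an *S100a8* or *S100a9* UMI (54.2% of UT and 47.9% of BUP cells) the log2 ratio of *Il1b* was 0.47, and 0.64 for *Il1a*. Per 100 UMIs of *S100a8* and *S100a9*, macrophage-like cells held 125 *Il1b* UMIs in UT and 81.1 in BUP, while neutrophil-like cells held 22.6 and 12.1. *S100a9* itself was higher in BUP neutrophil-like cells (41693 and 64353 CPM), which lowers such ratios in BUP. The ratio was also above the neutrophil-like one in dendritic-like (124 and 61.5), tumor-like (42.9 and 36.4), NK-like (31.6 and 15.9) and T-like cells (30.4 and 20.3). It therefore does not set macrophage-like cells apart, and the part of neutrophil transcripts in their *Il1b* was not tested.

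T-like and tumor-like cells were read in the same way. In T-like cells the neutrophil markers summed to 881 CPM in UT and 644 in BUP, and the log2 ratio of *Il1b* was -0.03 among cells without an *S100a8* or *S100a9* UMI. Among T-like clusters the difference was widest in CD8 T-like cells, at 315 and 139 CPM. Tumor-like cells had neutrophil markers at 216 and 145 CPM, and their log2 ratio of *Il1b* was -0.64 among cells without those UMIs. It was -1.05 in thinned cells and -2.18 without the cells of highest doublet score, so its size depends on which cells are kept. The macrophage markers moved as well, at 512 and 351 CPM summed in tumor-like cells and at 418 and 282 CPM in T-like cells, and their part was not tested. In dendritic-like cells the markers summed to 819 and 1419 CPM, and in NK-like cells to 452 and 940 CPM.

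*Il1a* encodes the second agonist of the IL-1 receptor, an alarmin that needs no inflammasome. Macrophage-like cells held 76.9% of all *Il1a* UMIs in UT and 67.7% in BUP. Their *Il1a* level was 148 CPM (144 to 152) in UT and 249 (241 to 257) in BUP, giving a log2 ratio of 0.75 (0.69 to 0.81). Neutrophil-like cells had 149 CPM (129 to 171) and 194 CPM (169 to 222), giving a log2 ratio of 0.39 (0.10 to 0.67), so the intervals of both classes overlapped in UT but not in BUP. Over the macrophage-like clusters *Il1a* was at 303 and 389 CPM (*Cxcl3* and *Thbs1*, where it was 1 of the 10 leading genes), 69.9 and 105 CPM (C1q), 134 and 252 CPM (interferon-led) and 36.7 and 40.0 CPM (cycling). The interferon-led cluster had the widest difference of *Il1a*, with a log2 ratio of 0.91 (0.65 to 1.17), whereas for *Il1b* it was the C1q cluster. Weighted equally over clusters, the macrophage-like log2 ratio was 0.42. Dendritic-like cells had only 24 and 58 *Il1a* UMIs (13.8 and 28.7 CPM), of which the 5 richest cells held 83.3% and 72.4%. The log2 ratio there was 1.05 (0.35 to 1.81), and 0.34 without the cells of highest doublet score, below 1.5-fold.

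*Il1rn*, the receptor antagonist, was like *Il1b* highest in neutrophil-like and next highest in macrophage-like cells among the classes compared. It was at 1075 CPM (1020 to 1132) in UT and 895 (839.7 to 952) in BUP neutrophil-like cells, giving a log2 ratio of -0.26 (-0.38 to -0.15). Macrophage-like cells had 365 CPM (358 to 371) and 456 CPM (445 to 467), giving a log2 ratio of 0.32 (0.28 to 0.37). The interferon-led cluster had the highest macrophage-like level, at 607 and 781 CPM, and the C1q cluster had 256 and 269 CPM, with a log2 ratio of 0.07 (-0.02 to 0.16). The C1q cells thus differed in *Il1b* without a detectable difference in the antagonist. *Il36g* and *Il1rap*, highest in neutrophil-like cells, were also higher in BUP C1q cells, at 15.6 and 34.4 CPM and at 24.1 and 38.9 CPM. *S100a9* in that cluster was at 902 and 2734 CPM, and the part of neutrophil transcripts was not tested. The *Il1b* UMIs per *Il1rn* UMI of C1q cells were 2.80 in UT and 4.63 in BUP. They were 4.09 and 4.24 in the *Cxcl3* and *Thbs1* cluster and 2.13 and 2.01 in the interferon-led cluster. In neutrophil-like cells the same ratio was 12.2 and 12.4, since ligand and antagonist were lower in BUP by about the same factor.

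Dendritic-like cells had less *Il1rn* in BUP, at 78.3 CPM (136 UMIs) in UT and 36.1 (73 UMIs) in BUP, giving a log2 ratio of -1.12 (-1.55 to -0.70). Both dendritic-like clusters gave that direction, with log2 ratios of -1.17 (-1.78 to -0.57) in cDC1-like and -0.96 (-1.59 to -0.35) in migratory cells. Among dendritic-like cells without an *S100a8* or *S100a9* UMI the log2 ratio was -1.69, while it was -0.64 in thinned cells and -0.71 without the cells of highest doublet score. The 5 richest cells held 55.9% of these UMIs in UT and 42.5% in BUP, and at 1000 UMIs per cell 4.44% (1.65 to 9.42) and 3.33% (1.09 to 7.61) of cells had one. Erythrocyte-like cells had 0% (0 to 5.44) and 0% (0 to 5.52) at that depth, and 4 and 1 *Il1rn* UMIs in all (27.8 and 6.82 CPM). The intervals of the shares overlapped, while the dendritic-like levels were above these. A control of so few UMIs cannot decide whether dendritic-like *Il1rn* is background. T-like cells had *Il1rn* at 27.1 and 12.9 CPM, NK-like cells at 10.7 and 15.4 CPM and tumor-like cells at 11.3 and 7.88 CPM.

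**Figure D2:**
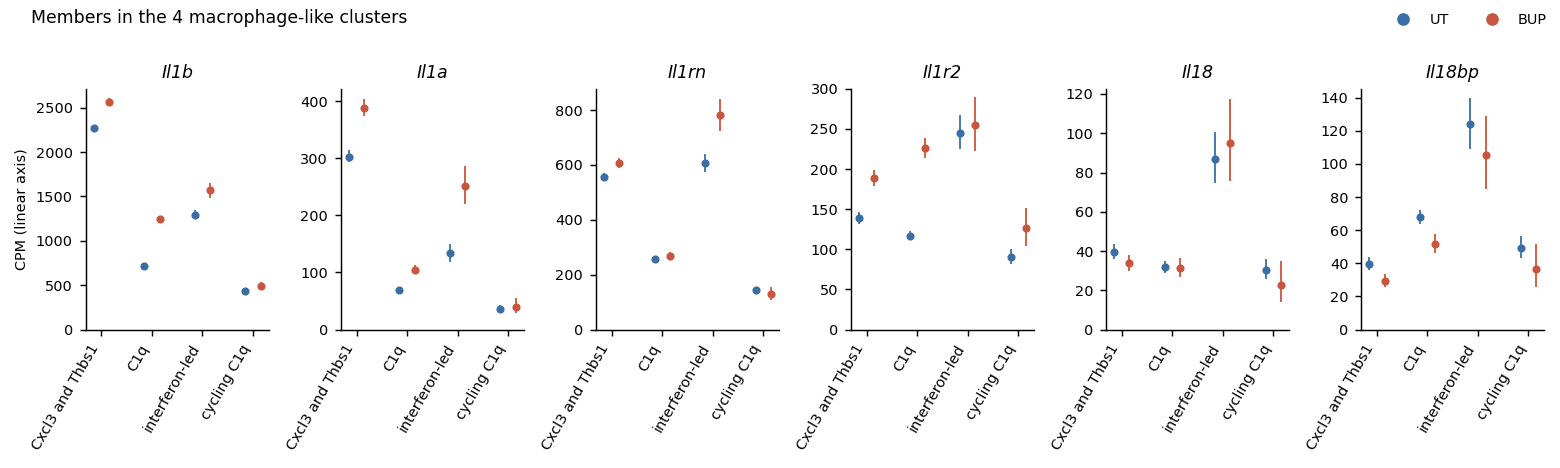
Level of 6 members (CPM, linear axis from 0) in the 4 macrophage-like clusters of UT (blue) and BUP (red), with exact 95% Poisson intervals. *Il1b* of the C1q cluster was at 718 and 1246 CPM, while its *Il1rn* was at 256 and 269 CPM, and *Il18bp* was lower in BUP in each cluster, with overlapping intervals in the interferon-led and cycling clusters.

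*Il1r2* encodes the decoy receptor, which binds IL-1 without signaling. Neutrophil-like cells had by far the most, at 3350.5 CPM (3254 to 3449) in UT and 3482 (3373 to 3594) in BUP, giving a log2 ratio of 0.06 (-0.01 to 0.12). At 1000 UMIs per cell 81.1% and 86.8% of them had an *Il1r2* UMI. Of the other 5 classes dendritic-like cells had the most in UT, at 352 CPM, and had 217 CPM in BUP, giving a log2 ratio of -0.70 (-0.88 to -0.52) that both clusters shared. Macrophage-like cells had 129 and 203.5 CPM, giving a log2 ratio of 0.66 (0.59 to 0.73). The order of dendritic-like and macrophage-like cells was therefore clear in UT, while their intervals overlapped in BUP (197 to 238 and 196 to 211 CPM). Within macrophage-like cells the C1q cluster had 117 and 226 CPM and the interferon-led cluster 245 and 254 CPM, and the log2 ratio of the class was 0.84 in cells without an *S100a8* or *S100a9* UMI.

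T-like cells also carried *Il1r2*, at 116 and 81.0 CPM. Per 100 *S100a8* and *S100a9* UMIs they held 16.9 and 15.1 *Il1r2* UMIs, against 5.77 and 3.77 in neutrophil-like cells, and 8.53 and 4.66 in NK-like cells. This ratio was above the neutrophil-like one in T-like and NK-like cells, and also in macrophage-like, dendritic-like and tumor-like cells of both libraries. Among the 6 classes it was highest in dendritic-like cells, at 58.2 in UT and 18.7 in BUP. It therefore does not set T-like cells apart. At 1000 UMIs per cell 7.13% (5.12 to 9.62) of UT and 4.05% (2.79 to 5.67) of BUP T-like cells had an *Il1r2* UMI. The shares of erythrocyte-like cells were 1.52% (0.0384 to 8.16) and 1.54% (0.0389 to 8.28), with overlapping intervals. By level, erythrocyte-like cells had 62.6 and 13.6 CPM, from 9 and 2 UMIs, below T-like cells in both libraries. This control rests on few UMIs of shallow cells, so whether T-like *Il1r2* is background was not decided. *Il1r2* in tumor-like cells was at 13.8 and 6.77 CPM.

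*Il1rap*, the accessory chain used by the receptors for IL-1, IL-33 and IL-36, was more evenly spread. Neutrophil-like cells had 347 CPM (317 to 380) in UT and 438 (400.03 to 479) in BUP, giving a log2 ratio of 0.33 (0.15 to 0.52). Macrophage-like cells had 23.6 and 30.1 CPM, tumor-like cells 17.9 and 16.7 CPM and T-like cells 18.9 and 16.2 CPM. NK-like cells had 15.3 and 14.4 CPM and dendritic-like cells 14.4 and 11.4 CPM, and the intervals of T-like, NK-like, dendritic-like and tumor-like cells overlapped within a library. The log2 ratio in macrophage-like cells was 0.35 (0.18 to 0.52), and 0.0048 among cells without an *S100a8* or *S100a9* UMI.

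*Il36g* encodes IL-36 gamma, a ligand best known from epithelium, and here it was chiefly a neutrophil transcript. Neutrophil-like cells had 718 CPM (673 to 764) in UT and 805 (753 to 860) in BUP, giving a log2 ratio of 0.16 (0.03 to 0.30). It was 1 of the 10 leading genes of that cluster although left out of the clustering. Macrophage-like cells had 13.96 and 20.2 CPM, T-like cells 9.44 and 2.84 CPM and tumor-like cells 2.39 and 1.01 CPM. Per 100 *S100a8* and *S100a9* UMIs, UT cells held from 1.24 (neutrophil-like) to 1.69 (NK-like) *Il36g* UMIs in 5 classes and 2.67 in dendritic-like cells. In BUP the values were 0.871 in neutrophil-like, 0.878 in macrophage-like, 0.859 in tumor-like, 0.966 in NK-like, 1.07 in dendritic-like and 0.529 in T-like cells. *Il36g* thus kept a similar ratio to the calprotectin genes in most classes, whereas *Il1b* per 100 of those UMIs ran from 22.6 to 125 in UT and from 12.1 to 81.1 in BUP. The T-like *Il36g* value rested on 40 and 17 UMIs, and its log2 ratio of -1.73 (-2.64 to -0.88) became 0.47 in thinned cells.

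*Il18* and *Il18bp* had their highest levels of the macrophage-like clusters in interferon-led cells. There *Il18* was at 87.0 CPM (74.9 to 101) in UT and 94.97 (75.8 to 118) in BUP, and *Il18bp* at 124 CPM (109 to 140) and 105 CPM (84.9 to 129). The whole macrophage-like class had *Il18* at 38.0 and 35.7 CPM, giving a log2 ratio of -0.09 (-0.24 to 0.06). Its *Il18bp* was at 59.5 CPM (56.8 to 62.3) in UT and 42.9 (39.6 to 46.3) in BUP, giving a log2 ratio of -0.47 (-0.60 to -0.34). The 4 clusters had log2 ratios of *Il18bp* from -0.44 to -0.24, and the intervals of the *Cxcl3* and *Thbs1* cluster (-0.68 to -0.20) and the C1q cluster (-0.59 to -0.21) lay below 0. *Il18* per *Il18bp* UMI in macrophage-like cells was accordingly 0.638 in UT and 0.833 in BUP. Neutrophil-like cells had *Il18* at 45.1 and 40.8 CPM, and *Il18bp* at 45.8 and 26.3 CPM from 62 and 29 UMIs, giving a log2 ratio of -0.80 (-1.49 to -0.14) that was 0.06 in thinned cells. Taken as whole classes, T-like, NK-like and tumor-like cells had neither gene above 8.20 CPM.

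IL-33, an alarmin kept in the nucleus of stromal cells, and its receptor ST2 had another distribution. Fibroblast-like cells (15 UT and 64 BUP) had *Il33* at 703 and 394 CPM and held 68.6% and 89.6% of all *Il33* UMIs of their libraries. A single UT cell held 179 of 205 *Il33* UMIs, so the UT level rests on that cell. *Il33* had 0 UMIs in neutrophil-like cells of both libraries, which allows up to 2.22 and 2.72 CPM, and 0.159 and 0.267 CPM in macrophage-like cells. In tumor-like cells *Il33* was at 1.88 CPM (52 UMIs) in UT and 0.243 (12 UMIs) in BUP, giving a log2 ratio of -2.95 (-3.99 to -2.03), with 76.9% of the UT UMIs in 5 cells and 23 in 1 cell. Cycling CD8 T-like cells had 10.8 and 7.57 CPM, from 17 and 19 UMIs.

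*Il1rl1* was carried by tumor-like cells, which held 74.5% of its UMIs in UT and 79.9% in BUP. Their level was 74.7 CPM (71.5 to 78.0) in UT and 62.4 (60.3 to 64.7) in BUP, giving a log2 ratio of -0.26 (-0.34 to -0.18). Within the 2 tumor-like clusters it did not differ detectably: the cluster led by *Krt20* and *Nppb* had 92.5 and 94.5 CPM, giving a log2 ratio of 0.03 (-0.06 to 0.12), and the cluster led by *Ogn* and *Aspn* had 24.5 and 24.1 CPM, giving a log2 ratio of -0.02 (-0.27 to 0.23). The *Ogn* and *Aspn* cluster made up 502 of 1126 tumor-like cells in UT and 1505 of 2432 in BUP. Among rarer cells, mast-like cells, which are known for ST2, had *Il1rl1* at 1207 CPM (981 to 1470, 99 UMIs in 35 cells) and 522 CPM (372 to 714, 39 UMIs in 35 cells). Fibroblast-like cells had 1256 and 448 CPM, with 94.5% of the UT UMIs in 5 cells, and neutrophil-like cells had 13 UMIs in UT and 1 in BUP. As whole classes, macrophage-like, T-like, NK-like and dendritic-like cells had at most 3.30 CPM. Of the 14 T-like *Il1rl1* UMIs in each library, 8 in UT and 7 in BUP were in the cluster led by *Foxp3* and *Il17a*, at 18.999 and 19.8 CPM.

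**Figure D3:**
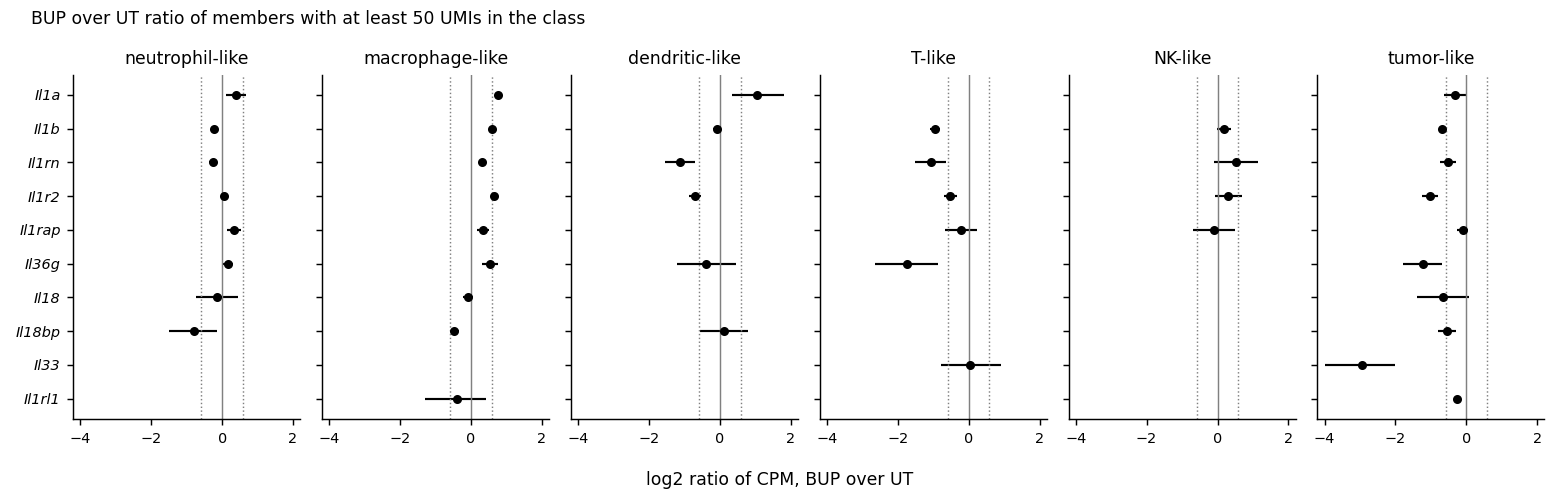
Log2 ratio of CPM in BUP over UT for members with at least 50 UMIs in a class, with exact 95% intervals, where dotted lines mark 1.5-fold. Ratios of macrophage-like cells were above 0 for 6 of 9 members, while those of tumor-like cells were below 0 for all 10.

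Each class was also read by how many members passed 1.5-fold. In macrophage-like cells 3 of 9 members with at least 50 UMIs (*Il1a*, *Il1b* and *Il1r2*) were at least 1.5-fold higher and 0 lower, against 3.37% higher and 5.7% lower of 12182 genes. Their median log2 ratio was 0.35, against -0.09 for all genes. The *Il1b* call was lost in several alternatives, with log2 ratios from 0.54 (resolution 1.0) down to 0.30 (equal cluster weights). The *Il1a* call was lost with equal cluster weights (0.42). In neutrophil-like cells 0 of 8 were higher and 1 (*Il18bp*) lower, against 2.48% and 14.5% of 3958 genes, with a median of -0.04 against -0.10. That *Il18bp* call rested on 62 and 29 UMIs and was lost in thinned cells. In T-like cells 0 of 6 were higher and 3 lower (*Il1b*, *Il1rn* and *Il36g*), against 1.96% and 6.47%. In tumor-like cells 0 of 10 were higher and 5 lower (*Il1b*, *Il1r2*, *Il36g*, *Il18* and *Il33*), against 2.67% and 5.38%, and the interval of *Il18* held 0. *Il1b* of T-like and tumor-like cells enters these counts although its share of cells was not above that of erythrocyte-like cells. The T-like ratio of *Il1b* was -0.03 without *S100a8* or *S100a9* UMIs and that of *Il36g* 0.47 in thinned cells. Dendritic-like cells had 1 of 6 higher (*Il1a*, a call lost without the highest doublet scores) and 2 lower (*Il1rn* and *Il1r2*), against 2.82% and 7.42%. Dendritic-like *Il1rn* enters the count although its share of cells could not be told from that of erythrocyte-like cells. None of the 4 members measured in NK-like cells passed 1.5-fold either way, against 2.26% higher and 4.32% lower. Neutrophil transcripts moved in the same direction as the members in macrophage-like, T-like and tumor-like cells, and their part in these counts was not tested. These calls are 15 pairs of a member and a class, of 43 pairs with at least 50 UMIs. Without cells holding an *S100a8* or *S100a9* UMI, 7 pairs passed 1.5-fold, with neutrophil-like cells kept whole. That choice leaves fewer cells and UMIs, so fewer pairs can pass, and the share of all genes is not given for it. The part of the lost UMIs in the lower count was not tested.

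**Figure D4:**
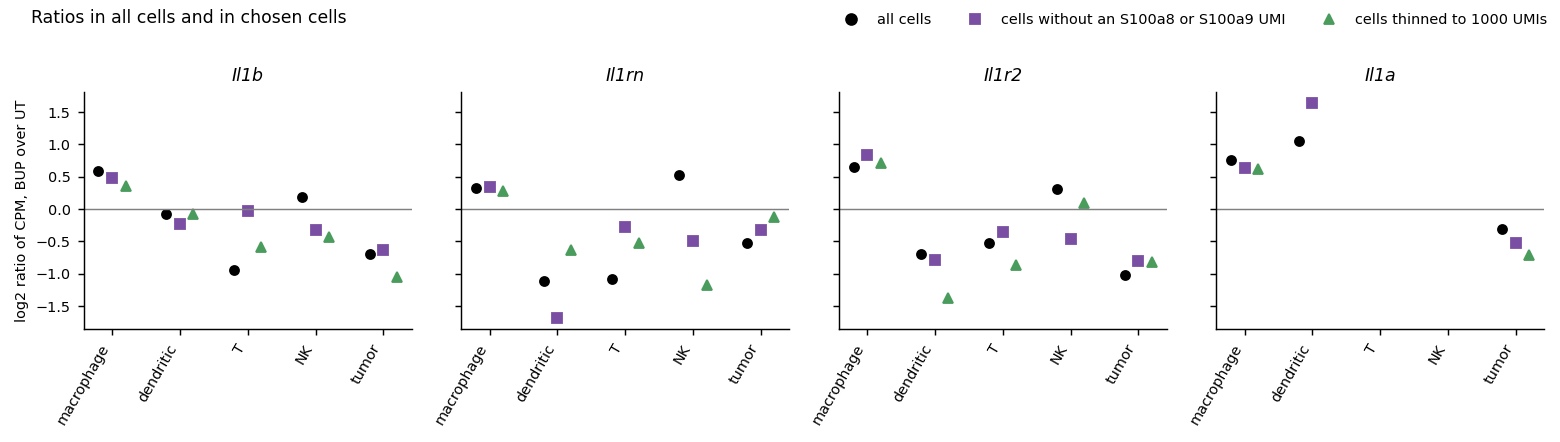
Log2 ratio of BUP over UT for 4 members in 5 classes, in all cells (black), in cells without an *S100a8* or *S100a9* UMI (purple) and in cells thinned to 1000 UMIs (green), for members with enough UMIs. *Il1b* in T-like cells was at -0.94 in all cells and -0.03 without those UMIs, while the macrophage-like ratios of *Il1b*, *Il1a*, *Il1rn* and *Il1r2* stayed above 0 in each choice.

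Detection of the members in the same cell was counted next. In UT macrophage-like cells thinned to 1000 UMIs, 34.5% of 1266 cells with an *Il1b* UMI also had an *Il1rn* UMI, against 18.5% of 1489 cells without. In BUP the shares were 33.6% of 763 and 24.1% of 618 cells. *Il1a* was in 19.9% of *Il1b*-positive and 5.44% of *Il1b*-negative UT cells and in 23.1% and 9.87% of BUP cells. These shares pool 4 clusters in which the 3 genes differ together, so they also follow cluster makeup, and co-detection within a cluster was not computed. In neutrophil-like cells nearly every cell had *Il1b*, and 45.0% of UT and 47.3% of BUP *Il1b*-positive cells had *Il1rn*, against 52.2% of 23 and 50% of 8 *Il1b*-negative cells. *Il1a* was in 7.36% and 10.3% of positive and 13.04% and 12.5% of negative neutrophil-like cells. The median *Il1b*-positive neutrophil-like cell held 22 *Il1b* UMIs in each library. Macrophage-like cells nevertheless held more of all *Il1b* UMIs (50.1% in UT and 43.1% in BUP) than neutrophil-like cells (22.9% and 18.9%), being more numerous and deeper. The cluster with mixed neutrophil and macrophage markers held a further 8.7% and 14.3%, with *Il1b* at 5853 and 5493 CPM.

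**Figure D5:**
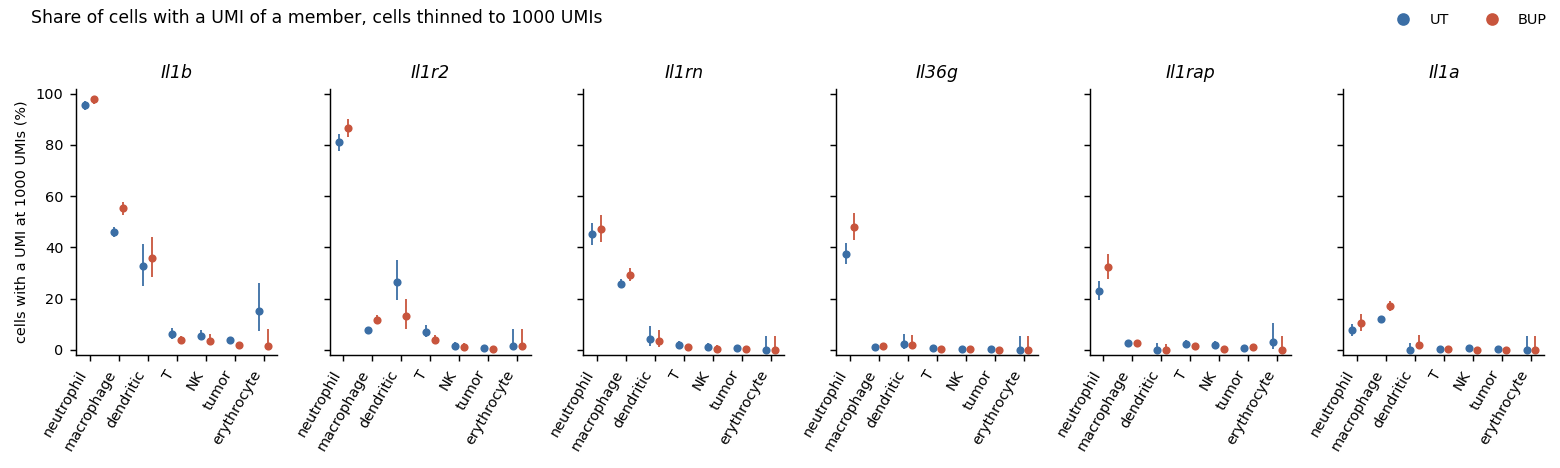
Share of cells with a UMI of 6 members after thinning each cell to 1000 UMIs, in 6 classes and in erythrocyte-like cells for comparison, with exact 95% binomial intervals. *Il1b* was in 95.7% and 97.9% of neutrophil-like cells, and *Il36g* in 37.5% and 48.1%, while 81 UT and 48 BUP neutrophil-like cells under 1000 UMIs were left out.

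Receptors and signaling genes around the members were read from a list of 37 further IL-1 pathway genes, counting those with at least 100 UMIs in a class. In macrophage-like cells 32 were measured, and 7 were at least 1.5-fold higher in BUP and 0 lower, against 2.49% higher and 4.69% lower of 10983 genes with as many UMIs. Of these, 6 belong to 12 NF-kB feedback and response genes. The chemokine genes *Cxcl1* (808 and 1418 CPM), *Cxcl2* (5883 and 10127 CPM) and *Cxcl3* (1038 and 1836 CPM), which draw neutrophils through CXCR2, had log2 ratios of 0.81, 0.78 and 0.82. The cluster led by *Cxcl3* and *Thbs1* was a larger part of the class in BUP, and the part of this makeup in the class values was not tested. Within that cluster *Cxcl2* was at 11305 and 14567 CPM, and in the C1q cluster at 2881 and 5579 CPM. *Cxcl1* was at 1566 and 2189 CPM and at 450 and 618 CPM in the same clusters, and *Cxcl3* at 2442 and 3049 CPM and at 315 and 606 CPM. The neutrophil markers of the class, 1370 and 2748 CPM, moved with these values too, and their part was not tested. *Ptgs2*, the prostaglandin synthase COX-2, was at 233 and 480.01 CPM, giving a log2 ratio of 1.04 (1.00 to 1.09). *Il6* and *Csf3* had few UMIs (157 and 190, 40 and 96), with log2 ratios of 1.34 and 2.33. The signaling receptor gene *Il1r1* was the seventh, at 2.74 and 5.88 CPM.

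Genes that process IL-1 or carry its signal were also on the list. In macrophage-like cells 0 of 7 inflammasome genes and 0 of 9 signaling genes passed 1.5-fold, which is near the 2.49% higher and 4.69% lower of all genes and no result about them. *Nlrp3*, the inflammasome sensor, was at 232 and 308 CPM, and *Pycard*, its adaptor, at 218 and 214 CPM. *Irak2*, a kinase downstream of MyD88, was at 124 and 166 CPM, and the inhibitor gene *Nfkbia* at 2016 and 2904 CPM. In neutrophil-like cells 19 of the 37 were measured and 0 passed 1.5-fold, against 1.65% higher and 9.76% lower of all genes with 100 UMIs. There *Cxcl2* was at 23830.3 and 25921 CPM, *Nlrp3* at 1150 and 1259 CPM and *Nfkbia* at 6567 and 8142 CPM.

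Receptor genes for these ligands were spread over several classes. *Il1r1* was at 47.8 and 53.7 CPM in tumor-like cells, giving a log2 ratio of 0.17 (0.07 to 0.26), against 2.74 and 5.88 CPM in macrophage-like cells. The IL-18 receptor genes *Il18r1* and *Il18rap* were at 119 and 78.1 CPM and at 176 and 112 CPM in T-like cells, with log2 ratios of -0.61 (-0.79 to -0.42) and -0.66 (-0.81 to -0.51), and *Nlrp3* was the other list gene lower there, from 100 and 88 UMIs. By cluster, *Il18rap* was at 168 and 113 CPM in CD8, 208 and 112 CPM in cycling CD8 and 97.4 and 96.1 CPM in *Foxp3* and *Il17a* cells, the last being 112 of 569 T-like cells in UT and 88 of 810 in BUP. *Il18r1* was lower in BUP in each of the 3, at 107 and 76.1, 124 and 75.3, and 164 and 116 CPM. The neutrophil markers (881 and 644 CPM) and macrophage markers (418 and 282 CPM) of T-like cells were lower in BUP too, and their part was not tested. Neutrophil-like cells had *Il18rap* at 206 and 217 CPM and *Il18r1* from 17 and 4 UMIs. NK-like cells had *Il18r1* at 97.3 and 103 CPM and *Il18rap* at 139.6 and 125 CPM. Tumor-like cells had *Il18rap* at 70.2 and 54.2 CPM (1943 and 2674 UMIs), giving a log2 ratio of -0.37 (-0.46 to -0.29). Of 27 list genes measured in T-like cells, 2 (*Cxcl1* and *Cxcl3*) were higher and the 3 genes above lower, against 1.31% and 4.42% of all genes with 100 UMIs. Of 27 measured in NK-like cells, 4 (*Nlrp3*, *Nfkbia*, *Cxcl2* and *Cxcl3*) were higher and 1 (*Cxcl1*) lower, against 1.22% and 2.71%. Those 4 genes are also abundant in neutrophil-like cells, and the neutrophil markers of NK-like cells were at 452 and 940 CPM; their part was not tested. Of 21 measured in dendritic-like cells, 3 (*Irak2*, *Ptgs2* and *Cxcl1*) were higher and 1 (*Rela*) lower, against 1.68% and 4.65%. Beside these calls the neutrophil markers of dendritic-like cells were at 819 and 1419 CPM, and 5.59% of UT and 10.4% of BUP cells were among the highest doublet scores, whose part was not tested. Of 28 measured in tumor-like cells, 1 was higher (*Cxcl1*, at 466 and 833 CPM) and 1 lower (*Cxcl3*, at 53.2 and 35.0 CPM). These counts are near the 1.74% and 4.34% of all genes and are no result about the list. Both directions held within the *Ogn* and *Aspn* cluster (*Cxcl1* 833 and 1194 CPM, *Cxcl3* 73.2 and 50.2 CPM), the larger part of BUP tumor-like cells, and within the *Krt20* and *Nppb* cluster (336 and 530 CPM, 46.1 and 22.3 CPM). The macrophage markers of the class, at 512 and 351 CPM, moved with *Cxcl3*, and their part was not tested. The remaining family genes *Il36a*, *Il36b*, *Il36rn* and *Il1f10* were not measured with 100 UMIs in any of the 6 classes.

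Across the 25 clusters of both libraries (50 points, which share library and depth), the genes most like each member in level were found by Pearson correlation of log2(CPM + 1) among 10348 genes. Among the 3 genes most like *Il1b* were *Il1rn* (0.929) and *Cxcl2* (0.928). *Il1rn* was most like *C5ar1*, a complement receptor gene of myeloid cells (0.966), and *Il1a* most like *F10* (0.911). *Il1r2* was most like *Il1b* (0.910). *Il36g* was most like *G0s2* and *S100a9*, both neutrophil transcripts (0.911 and 0.908). *Il18* was most like *Sgk3* (0.927), *Il18bp* like the interferon-induced chemokine gene *Cxcl10* (0.836), *Il33* like the collagen gene *Col5a3* (0.863), *Il1rap* like *Morrbid* (0.836) and *Il1rl1* like *Snhg18* (0.806).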

How the data were processed

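Single-cell 5′ gene expression libraries of the UT and BUP tumors were deposited by the authors as raw UMI counts per gene and barcode, made with Cell Ranger 8.0.1 on GRCm39 per the submitters' processing notes, which also name Seurat 5.0.1. The counts were not normalized. Each group had 1 library from 3 pooled tumors, with 83228442 (UT) and 89918925 (BUP) UMIs.

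Cells were barcodes of over 100 UMIs whose mitochondrial share was below 20%. Cells were clustered in R 4.3.3 with Seurat 5.3.0 (2000 variable genes without the members and pathway list, 20 principal components, resolution 0.5). Clusters with *Ptprc* in at least 30% of cells were treated as immune, and classes were given from marker lists after the clusters were seen. No doublets were removed. Counts were summed per class and library and scaled to CPM in Python 3.11.15 (numpy 2.4.6, scipy 1.17.1, pandas 2.3.3, scanpy 1.11.5, matplotlib 3.10.9). Intervals of 95% are exact: Poisson for levels, conditional binomial for ratios and Clopper-Pearson for shares. They cover counting error only. With 1 library per group no p-value was computed, and a ratio is counted as higher or lower only past 1.5-fold with at least 50 UMIs (100 for the pathway list), while smaller ratios are given as values.

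The members and lists were chosen with earlier results of these data known. Named genes were all members, the pathway genes past 1.5-fold or among the highest 2 of their sublist in level, and genes from the 3 most like each member, of which not all are reported here. On simulated counts for macrophage-like cells (12182 genes) the direction was right for 100% of genes changed by 0.5 or 1.0 on the log2 scale, and for neutrophil-like cells (3958 genes) for at least 94%. These counts followed the Poisson model that the intervals assume, without variation among cells, mice or libraries. They check the calculation only and say nothing of the differences between UT and BUP. Alternatives were a stricter cell filter, another resolution, 30 principal components, pathway genes kept in the clustering, median-ratio scaling, thinning to 1000 UMIs, removal of the 6% highest doublet scores a minimum of 200 UMIs and, for shares, thinning to 2000 UMIs. Equal cluster weights and cells without *S100a8* or *S100a9* UMIs were chosen after seeing the data.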

Additional observations from a re-analysis of the deposited data

How the results depend on the processing

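Each group had 1 library, so no value has a replicate check, and leaving out a replicate was not possible. No paired analysis was possible because the groups share a single replicate number. Of 340 alternative values for 43 log2 ratios of BUP over UT, 254 stayed within the counting interval and 30, of 13 ratios, had the other sign. Of ratios past 1.5-fold whose interval left out 0, the sign changed in 2 values, both from thinning to 1000 UMIs: *Il36g* in T-like cells was 0.47 and *Il18bp* in neutrophil-like cells 0.064, both from few UMIs. *Il1b* in macrophage-like cells stayed above 0 but was below 1.5-fold with the stricter cell filter (0.51), resolution 1.0 (0.54), thinning (0.35), cells without *S100a8* or *S100a9* UMIs (0.47) and equal cluster weights (0.30), and was 0.67 with median-ratio scaling and 0.62 without the highest doublet scores. *Il1a* in macrophage-like cells was 0.65, 0.83, 0.62, 0.64 and 0.42 with the stricter filter, median-ratio scaling, thinning, cells without those UMIs and equal cluster weights. *Il1rn* there was 0.24 (stricter filter), 0.27 (resolution 1.0), 0.40 (median-ratio) and 0.14 (equal weights), and *Il18bp* there was -0.75 when thinned. In neutrophil-like cells *Il1b* was -0.19 (stricter filter), -0.18 (median-ratio) and -0.30 (thinned), and *Il1r2* was 0.12 (median-ratio) and -0.014 (thinned). The number of member and class pairs past 1.5-fold, 15 in the values reported, was 6 when thinned, 8 with a minimum of 200 UMIs and 7 in cells without those UMIs. Each of these choices also leaves fewer pairs that can pass. *Il1b* in NK-like cells, at 0.18, was below 0 in 6 of 8 alternatives, down to -1.06 with the stricter filter, *Il1a* in dendritic-like cells was 0.34 without the highest doublet scores, *Il1b* in tumor-like cells was -2.18 without the highest doublet scores, and in T-like cells *Il1b* ran from -1.50 (30 principal components) to -0.03 (cells without those UMIs). The causes were not tested.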

Other observations

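Smaller myeloid clusters outside the classes also carried the family. Monocyte-like cells (214 UT and 99 BUP) had *Il1b* at 1963 and 2324 CPM and *Il1rn* at 75.0 and 157 CPM, and their *Il1b* UMIs per *Il1rn* UMI were 26.2 and 14.8. *Il1a* in these cells rested on 64 and 8 UMIs. A cluster led by *Ctsk* and *Cd209a* (87 and 60 cells) had *Il1r2* at 1311 and 798 CPM and *Il1b* at 1734 and 1296 CPM, while its summed neutrophil markers were at 423 and 5500 CPM. In mast-like cells of BUP, 99 of 101 *Il1b* UMIs lay in 1 cell. No explanation was tested for these values.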
